A study of Mus musculus with 20 samples.

Results

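The genes described here are 10 immediate early and CREB-responsive transcription factors: Fos, Fosb, Jun, Junb, Egr1, Atf3, Nr4a1, Nr4a2, Nr4a3 and Crem. They were chosen by symbol, with earlier results of these data known but by no rule on measured values, out of 55335 annotated genes in a count table of mouse heart RNA, of which 14878 had enough counts to be tested. All 10 passed that filter. The mice were C57BL/6N, aged 3 to 5 months and on the NIH-31 diet, and were either OGFOD1-knockout (KO) or wild type (WT). OGFOD1 is an oxygenase that hydroxylates the ribosomal protein Rps23. Mice had an osmotic minipump for 2 weeks, so that KO isoproterenol mice received isoproterenol, a beta-adrenergic agonist, in PBS with sodium ascorbate, and KO vehicle mice received PBS with sodium ascorbate alone. WT isoproterenol and WT vehicle mice were treated in the same ways. All 4 groups thus shared the pump, the PBS and the ascorbate, and each held 5 libraries of stranded total RNA from powdered whole heart. The labels do not say which part of Ogfod1 was deleted, in which cells, or that each library came from a different mouse. The p-values therefore measure the spread between libraries, which may be technical.

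Immediate early genes are transcribed within minutes of a stimulus from factors already present in the cell, and their messages are short-lived. Beta-adrenergic receptors raise cyclic AMP, protein kinase A then phosphorylates CREB, and CREB binds cyclic AMP response elements (CREs) in promoters of such genes. Serum response factor and the ERK pathway form a parallel input to Fos and Egr1. In the heart these factors are known for their brief induction by adrenergic agonists and by stretch, whereas the hearts here were taken at the end of a 2-week infusion.

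Library totals ranged from 14609808 to 43671055 counts, of which 5.92 to 17.1 M per library lay outside the mitochondrial genome. Ogfod1 measured 2.39 to 4.13 CPM (counts scaled to library size) in the 10 KO libraries and 16.9 to 21.8 CPM in the 10 WT libraries, so that every library matched its genotype label. The cardiomyocyte markers Myh6, Tnnt2, Actc1, Ryr2 and Pln were all abundant, with a summed level of 16250 to 28690 CPM (19530 to 25410 CPM without the pair of libraries named next). A pair of libraries stood apart. KO isoproterenol replicate 5 had a summed smooth muscle and pericyte marker level (5 of 5 markers detected) of 1563 CPM, against a median of 652 CPM over its group. WT vehicle replicate 2 had Lars2 at 9.18 and the rRNA-like Gm42418 at 13.2 on the log2 CPM scale. Where a gene named below no longer passed a test without this pair, this is given. Ranges and means include both libraries unless stated otherwise. Because whole heart was sampled, fewer cells of a type and less RNA per cell cannot be told apart.

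The promoters of the genes that the results below turn on are shown for the letters through which CREB and its relatives are known to act. Each is the 250 bases before the RefSeq start in GRCm38.p6, 5′ to 3′ on the strand of the gene. RefSeq promoters were matched for 8 of the 10 genes. Capitals mark the CRE half-site TGACG, or CGTCA where it lies on the other strand, and, in Atf3 alone, TTGCATCA, the reverse complement of TGATGCAA, the C/EBP-ATF element through which ATF4 is known to act. The regions are chr1:191183334-191183583 (minus strand), chr12:85473640-85473889 (plus strand), chr4:95052223-95052472 (minus strand), chr15:101266596-101266845 (plus strand) and chr4:48045055-48045304 (plus strand). The Atf3, Nr4a1 and Nr4a3 starts lie inside longer GENCODE gene models with other starts upstream. The Nr4a3 model begins at chr4:48045153, so that part of the window shown lies inside it.
Atf3: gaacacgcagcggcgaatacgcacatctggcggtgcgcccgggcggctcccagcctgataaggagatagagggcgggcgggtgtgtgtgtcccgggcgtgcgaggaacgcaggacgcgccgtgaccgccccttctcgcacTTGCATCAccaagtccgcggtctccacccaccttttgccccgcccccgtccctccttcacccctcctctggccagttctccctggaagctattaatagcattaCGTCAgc
Fos: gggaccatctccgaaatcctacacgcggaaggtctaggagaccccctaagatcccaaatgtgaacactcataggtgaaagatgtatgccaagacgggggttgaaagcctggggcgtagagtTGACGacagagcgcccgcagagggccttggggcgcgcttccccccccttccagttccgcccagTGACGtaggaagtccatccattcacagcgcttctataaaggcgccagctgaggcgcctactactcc
Jun: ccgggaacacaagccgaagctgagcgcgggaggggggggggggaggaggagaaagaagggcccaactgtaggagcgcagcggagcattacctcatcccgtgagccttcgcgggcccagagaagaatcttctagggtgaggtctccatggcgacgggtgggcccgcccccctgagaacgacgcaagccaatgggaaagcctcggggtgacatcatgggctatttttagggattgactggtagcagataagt
Nr4a1: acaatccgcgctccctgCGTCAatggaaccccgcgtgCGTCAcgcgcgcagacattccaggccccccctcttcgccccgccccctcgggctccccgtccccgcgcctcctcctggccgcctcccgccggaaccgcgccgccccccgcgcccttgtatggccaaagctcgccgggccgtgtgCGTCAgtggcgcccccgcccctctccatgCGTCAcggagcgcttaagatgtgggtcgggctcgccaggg
Nr4a3: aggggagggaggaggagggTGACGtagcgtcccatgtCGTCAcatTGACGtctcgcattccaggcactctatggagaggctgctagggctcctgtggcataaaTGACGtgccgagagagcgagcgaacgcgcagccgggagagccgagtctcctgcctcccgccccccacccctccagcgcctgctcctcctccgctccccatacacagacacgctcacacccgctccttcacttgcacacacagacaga

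Both strands were searched for each motif. TGACG occurred 4 times in each of Nr4a1, Nr4a2 and Nr4a3, 2 times in Fos and 1 time each in Fosb, Junb and Atf3, and was not found in Jun. Of 32851 promoters, 17.8% hold TGACG at least once. In Fos the matches began 129 and 66 bases before the start, and in Atf3 the match began 7 bases before it. In Atf3 the C/EBP-ATF element began 110 bases before the start, and 0.791% of promoters hold that motif. None of the 8 windows held the full CRE TGACGTCA (in 1.55% of promoters), the AP-1 site TGANTCA (6.75%), the serum response element core known as the CArG box (1.47%), the EGR site GCGTGGGCG (0.536%) or the NR4A site AAAGGTCA (1.34%). A match describes these letters in this window, not a bound site. Only exact matches were counted, so that near matches to the full CRE, such as tgacatca in Jun, were not. Bases farther from the start were not searched, and an absence holds for these windows alone.

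Levels differed widely between the 10 genes. As mean CPM per kilobase of exon over all 20 libraries, Jun was the most abundant at 12.1, percentile 92.1 of tested genes. Junb (5.05), Atf3 (4.91) and Nr4a1 (4.33) followed, then Nr4a3 (2.58), Egr1 (1.68), Fos (1.21) and Crem (1.03), all per kilobase. Nr4a2 (0.281 per kilobase) and Fosb (0.106 per kilobase) were close to the lower end of what could be tested, with 8 to 53 and 3 to 50 counts per library. Junb shares 173 exon bases with Prdx2 on the opposite strand, whose counts came to 751% of those of Junb. Crem shares 472 exon bases with Gm6225 (20.5% of its counts) and Jun 232 with the antisense Junos (1.38%). Whether the counting used strand is not given in the sources used here, so that the values of Junb above all, and of Crem, are uncertain.

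**Figure D1:**
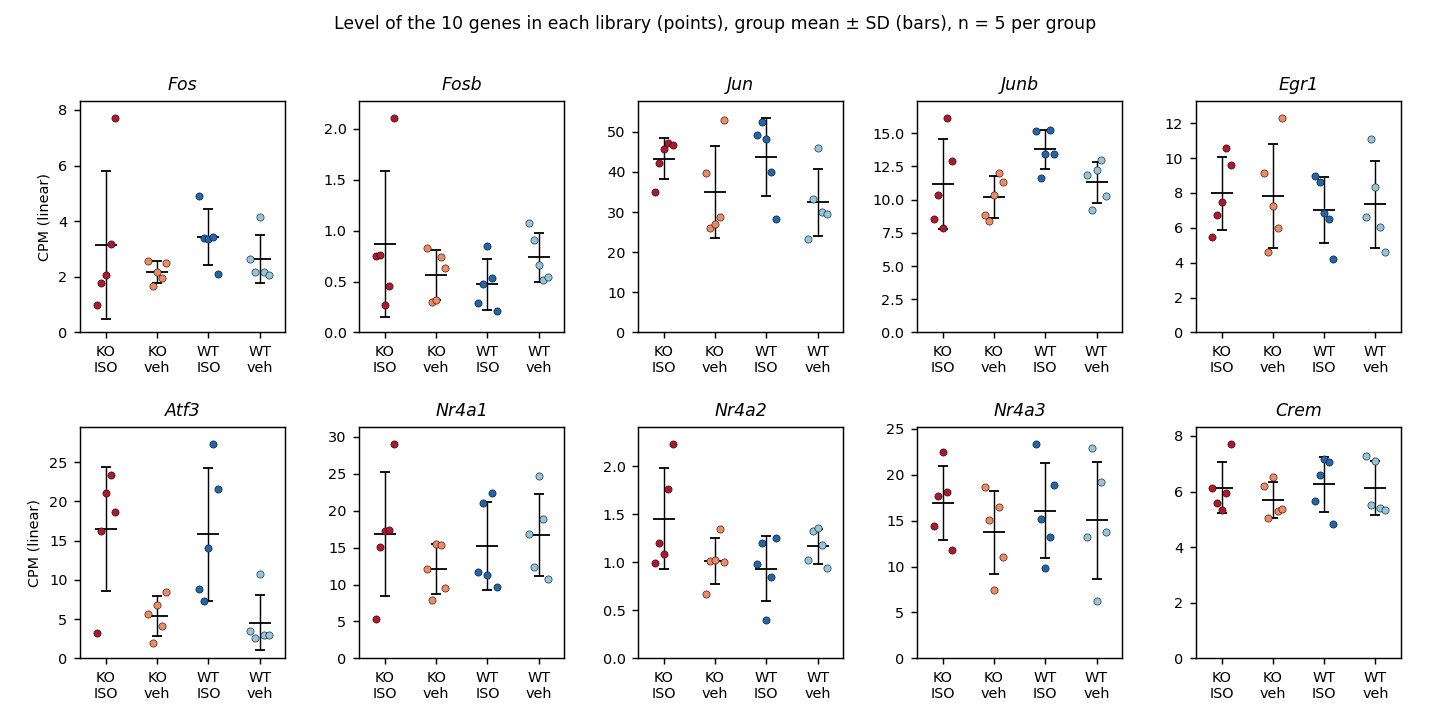
Level of each of the 10 genes in CPM on a linear axis from 0, in KO isoproterenol, KO vehicle, WT isoproterenol and WT vehicle libraries, with points for the 5 libraries of a group and bars for the mean ± SD. Atf3 averaged 16.5 and 15.8 CPM under isoproterenol in KO and WT, against 5.41 and 4.57 CPM under vehicle, and in every panel the groups overlap.

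Atf3 was the only one of the 10 genes to pass the test for isoproterenol, and it passed only when the responses of both genotypes were averaged. Atf3 encodes a stress-inducible member of the ATF/CREB family that often acts as a repressor. In KO isoproterenol libraries 1 to 5 it measured 3.24, 16.2, 21.1, 23.4 and 18.6 CPM, against 5.71, 1.96, 6.78, 4.08 and 8.50 CPM in KO vehicle libraries. In WT isoproterenol libraries it measured 8.84, 7.28, 14.1, 27.3 and 21.5 CPM, against 3.52, 2.66, 10.7, 2.99 and 2.97 CPM in WT vehicle libraries. In KO, 4 of 5 isoproterenol libraries lay above all vehicle libraries and replicate 1 lay among them. In WT, 3 of 5 did so, and the groups overlapped through vehicle replicate 3. The group means were 16.5 ± 7.89 CPM in KO isoproterenol and 5.41 ± 2.51 CPM in KO vehicle, and 15.8 ± 8.49 CPM in WT isoproterenol and 4.57 ± 3.45 CPM in WT vehicle (SD, n = 5 each).

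Averaged over both genotypes, Atf3 was higher with isoproterenol by 1.67 on the log2 scale (SE 0.385, 95% interval 0.86 to 2.49, adjusted p = 0.00569 in the edgeR quasi-likelihood fit, with Benjamini-Hochberg adjustment over all genes tested). Of all genes tested, 18.8% passed in that comparison in either direction and 9.76% were higher, against 1 of the 10 genes. An unadjusted edgeR p under 0.05 was reached by 2 of the 10 (Atf3 and Jun), against 31.7% of all genes. The Atf3 call held in 31 of 31 alternative analyses, with log2 fold changes of 1.43 to 1.99. Within single genotypes Atf3 did not pass, with log2 fold changes of 1.6 in KO (SE 0.538, edgeR adjusted p = 0.0773) and 1.75 in WT (SE 0.550, adjusted p = 0.0585). It passed in 2 of 32 alternatives in KO and in 6 of 32 in WT. In KO these were the fits without KO isoproterenol replicate 1 (1.86, adjusted p = 0.0234) and with DESeq2 (adjusted p = 0.0299), and the other alternatives reached an adjusted p of up to 0.161, with log2 fold changes down to 1.37. In WT it passed without KO isoproterenol replicate 1 (adjusted p = 0.0316), WT isoproterenol replicate 2 (adjusted p = 0.0429) or WT vehicle replicate 3 (2.39, adjusted p = 0.0213). DESeq2 (adjusted p = 0.0138) and limma-voom without and with quality weights (adjusted p = 0.0495 and 0.0300) also passed it in WT. In WT the log2 fold change was 1.42 without WT isoproterenol replicate 4 (adjusted p = 0.171). A fit that included 2 surrogate variables gave 1.25 in WT (adjusted p = 0.297).

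Atf3 showed no detectable difference between genotypes, although the intervals were wide. Its log2 fold change for KO against WT was 0.04 under isoproterenol (95% interval −1.01 to 1.10, edgeR adjusted p = 0.985) and 0.19 under vehicle (−1.04 to 1.43, adjusted p = 0.971). The difference of the isoproterenol responses, KO minus WT, was −0.15 (−1.78 to 1.48, adjusted p = 0.976). In the order of mean levels, the neighbouring KO isoproterenol and WT isoproterenol groups, and the neighbouring KO vehicle and WT vehicle groups, thus differed by less than their spread.

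Markers of other cell types also moved with isoproterenol. The summed level of the fibroblast list (5 of 5 markers detected) was 506 to 913 CPM in KO isoproterenol against 428 to 504 CPM in KO vehicle libraries, and 451 to 527 CPM in WT isoproterenol against 389 to 438 CPM in WT vehicle libraries. For the macrophage list (5 of 5 detected) it was 109 to 126 against 94.4 to 102 CPM in KO, and 90.8 to 137 against 81.0 to 93.9 CPM in WT. No marker of these lists was at 0 in any library. The sums were not scaled by gene, so that 1 gene can carry a list. Over all libraries Dcn averaged 342 CPM and Col1a1 48.8 CPM in the fibroblast list, and Col1a1 ranged from 310 to 9006 counts. In the cardiomyocyte list Myh6 averaged 12040 CPM. The summed cardiomyocyte markers were 16250 to 21560 CPM in KO isoproterenol against 20730 to 22890 CPM in KO vehicle libraries, and 19530 to 21520 CPM in WT isoproterenol against 22610 to 28690 CPM in WT vehicle libraries. Without the pair of libraries that stood apart, the lowest KO isoproterenol value was 19640 CPM and the highest WT vehicle value 25410 CPM, and the highest fibroblast value in KO isoproterenol libraries was 578 CPM. Smooth muscle and pericyte markers summed to 612 to 1563 CPM in KO isoproterenol against 551 to 651 CPM in KO vehicle libraries, and to 616 to 707 CPM in WT isoproterenol against 499 to 599 CPM in WT vehicle libraries. Without replicate 5 the highest KO isoproterenol value was 656 CPM. Endothelial markers (4 of 4 detected) summed to 379 to 422 against 400.2 to 432 CPM in KO, and 412 to 458 against 385 to 404 CPM in WT. Atrial myocyte markers (3 of 3 detected) summed to 235 to 284 CPM in KO isoproterenol against 322 to 417 CPM in KO vehicle libraries, and to 226 to 299.5 CPM in WT isoproterenol against 206 to 317 CPM in WT vehicle libraries. Groups did not overlap for the fibroblast, macrophage and atrial lists in KO, and for the fibroblast, smooth muscle, endothelial and cardiomyocyte lists in WT. The neutrophil, lymphocyte, erythroid, adipocyte, skeletal muscle, Schwann and sympathetic nerve, and mesothelial lists, not shown here, overlapped in both genotypes. How often sums of other genes do not overlap was not computed. The part of any of these lists in the Atf3 result was not tested. Without KO isoproterenol replicate 5 and WT vehicle replicate 2 together, the averaged log2 fold change of Atf3 was 1.58 (edgeR adjusted p = 0.0174).

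Fos and Fosb, which encode the Fos-family partners of AP-1 dimers, did not pass in any comparison. Fos measured 0.998, 1.78, 2.07, 3.18 and 7.70 CPM in KO isoproterenol libraries 1 to 5, against 2.58, 1.66, 2.17, 1.95 and 2.50 CPM in KO vehicle libraries. The KO isoproterenol group held both the highest and the lowest Fos level of all 20 libraries. In WT isoproterenol libraries Fos measured 4.91, 3.38, 3.35, 3.44 and 2.1 CPM, against 2.65, 2.17, 4.14, 2.16 and 2.07 CPM in WT vehicle libraries. The log2 fold change with isoproterenol was 0.57 in KO (edgeR adjusted p = 0.445) and 0.37 in WT (adjusted p = 0.641). Without KO isoproterenol replicate 5, the KO value turned to −0.13. Fosb measured 0.273 to 2.11 CPM in KO isoproterenol and 0.302 to 0.834 CPM in KO vehicle libraries, and 0.210 to 0.851 CPM in WT isoproterenol and 0.515 to 1.07 CPM in WT vehicle libraries. Its log2 fold changes were 0.65 in KO (edgeR adjusted p = 0.373) and −0.56 in WT (adjusted p = 0.493), with a difference of 1.21 that did not pass (SE 0.608, adjusted p = 0.661). Without KO isoproterenol replicate 5 the KO value was −0.04.

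Jun and Junb encode the Jun-family subunits, Jun being a strong activator and Junb a weaker one. Jun measured 34.9, 42.2, 45.6, 47.2 and 46.7 CPM in KO isoproterenol libraries, against 39.8, 26.1, 26.9, 28.8 and 53.0 CPM in KO vehicle libraries. In WT isoproterenol libraries it measured 49.2, 52.6, 48.2, 40.0 and 28.3 CPM, against 23.4, 33.2, 46.0, 30.1 and 29.5 CPM in WT vehicle libraries. In KO all 5 isoproterenol libraries were at or above the vehicle mean of 34.9 ± 11.5 CPM, yet 1 vehicle library exceeded them all. Averaged over genotypes, the log2 fold change of Jun was 0.36 (SE 0.155, edgeR adjusted p = 0.114). It passed without KO vehicle replicate 5 (0.47, adjusted p = 0.0270) or WT vehicle replicate 3 (0.45, adjusted p = 0.0485), and with limma-voom without and with quality weights (adjusted p = 0.0387 and 0.0196). Junb averaged 11.2 ± 3.4 CPM in KO isoproterenol and 10.2 ± 1.56 CPM in KO vehicle, and 13.8 ± 1.5 CPM in WT isoproterenol and 11.3 ± 1.55 CPM in WT vehicle (SD, n = 5 each). Its log2 fold changes of 0.13 and 0.28 did not pass (edgeR adjusted p = 0.683 and 0.293, given for KO and then for WT), and without KO isoproterenol replicate 4 the KO value was −0.04.

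Egr1, a zinc finger factor of the serum response pathway, had the averaged log2 fold change closest to 0 among the 10 genes. It averaged 7.97 ± 2.08 CPM in KO isoproterenol and 7.84 ± 2.99 CPM in KO vehicle, and 7.02 ± 1.91 CPM in WT isoproterenol and 7.35 ± 2.49 CPM in WT vehicle (SD, n = 5 each). The averaged log2 fold change was −0.02, with a 95% interval of −0.44 to 0.41, and turned to 0.03 with library totals only. Crem encodes cyclic AMP responsive modulators, and an internal promoter gives the short repressor ICER, which counts per gene do not separate from the other isoforms. Its groups averaged 6.15 ± 0.923 CPM in KO isoproterenol and 5.69 ± 0.641 CPM in KO vehicle, and 6.26 ± 1.00 CPM in WT isoproterenol and 6.14 ± 0.979 CPM in WT vehicle (SD, n = 5 each). Its averaged log2 fold change of 0.08 had the narrowest interval of the 10 genes, −0.10 to 0.27, and did not pass.

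The NR4A genes encode orphan nuclear receptors whose activity follows their amount. Nr4a1 measured 5.39, 15.1, 17.3, 17.4 and 29.0 CPM in KO isoproterenol libraries, against 12.1, 7.95, 15.5, 15.3 and 9.58 CPM in KO vehicle libraries. In WT isoproterenol libraries it measured 11.7, 21.1, 11.4, 22.4 and 9.64 CPM, against 16.8, 12.4, 24.6, 18.8 and 10.7 CPM in WT vehicle libraries. The KO isoproterenol libraries again spanned the full range of the series, and the log2 fold changes of 0.51 in KO and −0.11 in WT did not pass (edgeR adjusted p = 0.453 and 0.902). Leaving out 1 library at a time gave 0.21 to 0.74 in KO. Nr4a3 averaged 16.9 ± 4.05 CPM in KO isoproterenol and 13.7 ± 4.51 CPM in KO vehicle, and 16.1 ± 5.20 CPM in WT isoproterenol and 15.1 ± 6.37 CPM in WT vehicle (SD, n = 5 each), with an averaged log2 fold change of 0.19 (adjusted p = 0.605).

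Nr4a2 had the smallest p of the 10 genes for a difference between genotypes, without passing. It measured 0.998, 1.21, 1.09, 1.76 and 2.23 CPM in KO isoproterenol libraries, against 0.982, 1.20, 0.400, 0.843 and 1.26 CPM in WT isoproterenol libraries. Under vehicle it measured 0.667, 1.02, 1.02, 1.34 and 1.00 CPM in KO libraries, against 1.02, 1.33, 1.35, 1.18 and 0.944 CPM in WT libraries. Under isoproterenol the log2 fold change for KO against WT was 0.68 (SE 0.261, edgeR adjusted p = 0.270). The difference of the isoproterenol responses was 0.89 (SE 0.369, edgeR adjusted p = 0.581). Leaving out each library in turn gave 0.45 to 0.79 for the comparison of genotypes, and none of these passed (lowest adjusted p = 0.197).

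None of the 10 genes passed within a single genotype or a single treatment. With isoproterenol in KO, 0 of 10 passed the edgeR test against 9.03% of all genes, and 2 (Atf3 and Nr4a2) had an unadjusted p under 0.05 against 23.1%. In WT 0 passed against 8.76%, and Atf3 alone had an unadjusted p under 0.05 against 23.0%. DESeq2 called 1 of the 10, Atf3, in each genotype, and of all 14878 genes it called 1549 in KO and 1539 in WT. For KO against WT, 0 passed under isoproterenol (0.181% of all genes) and 0 under vehicle (0.128%). The counts with an unadjusted p under 0.05 were 1 (Nr4a2) and 0, against 13.0% and 8.31% of all genes, and DESeq2 and limma-voom also called none. For the difference of the responses 0 passed with edgeR, DESeq2 or limma-voom, the share over all genes in edgeR was 0%, and Nr4a2 alone had an unadjusted p under 0.05 against 7.68%. No gene of the 10 had groups that did not overlap, against 8.06% and 8.05% of genes with isoproterenol in KO and WT, and 2.14% and 2.02% between genotypes under isoproterenol and vehicle. All 10 log2 fold changes with isoproterenol in KO were above 0, with a median of 0.41 against 0.01 over all genes, whereas in WT 6 were above 0 and the median was 0.07. Fos, Fosb, Junb and Egr1 each turned below 0 in KO in at least 1 of the fits that left out a library. Without the pair of libraries that stood apart, the KO values were −0.13 for Fos, −0.043 for Fosb and −0.076 for Egr1. The share of all genes above 0 is not given here.

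**Figure D2:**
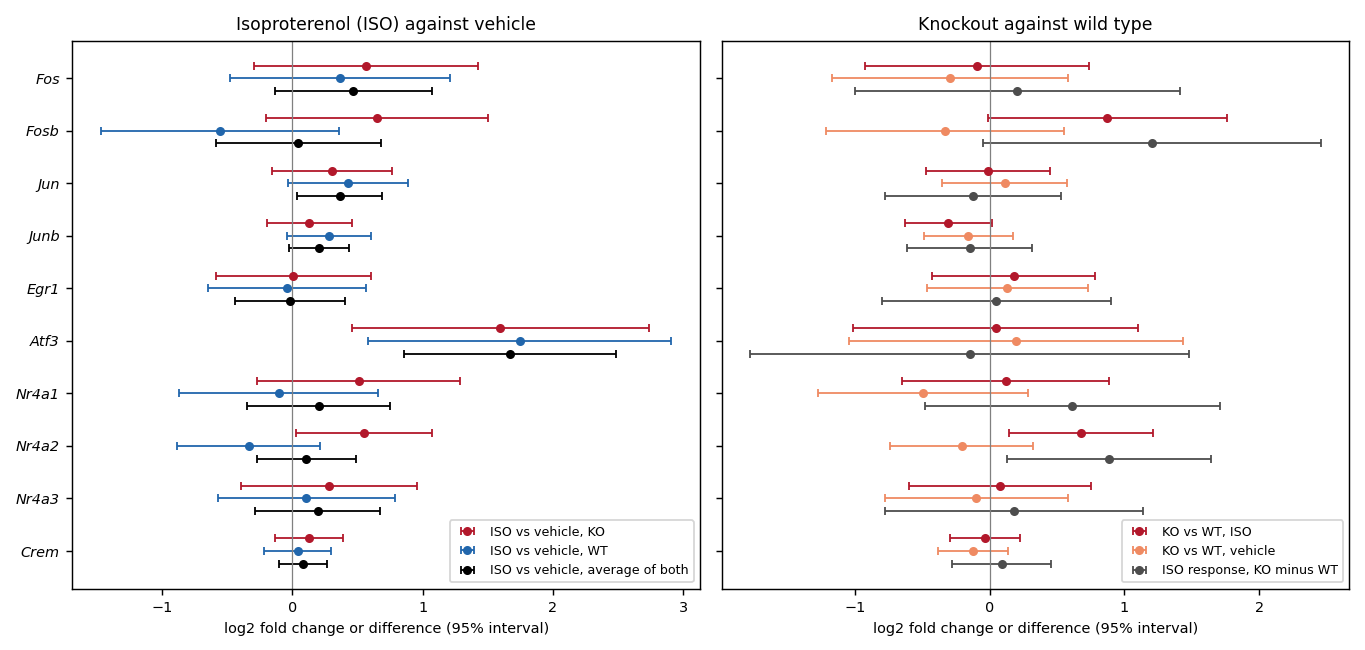
Log2 fold changes with 95% intervals from the edgeR fit, isoproterenol (ISO) against vehicle on the left and KO against WT, with the difference of the responses, on the right. The averaged interval of Atf3, 0.86 to 2.49, lies above 0, as do its intervals within each genotype, and only the averaged one passed the adjusted threshold. The intervals are not adjusted for the number of genes. Those of Jun (averaged, 0.04 to 0.69) and of Nr4a2 also lie above 0 without passing. For Nr4a2 they are 0.03 to 1.07 with isoproterenol in KO, 0.14 to 1.21 for KO against WT under isoproterenol, and 0.13 to 1.64 for the difference.

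Variation between libraries of the same group was larger than for most genes. The biological coefficient of variation, the relative spread between libraries beyond counting noise as edgeR estimates it, was 0.576 for Atf3, 0.421 for Fos, 0.395 for Nr4a1, 0.392 for Fosb, 0.347 for Nr4a3 and 0.301 for Egr1. These lay at percentile 97.3 of tested genes or above, and the median of all genes was 0.116. Jun (0.236), Nr4a2 (0.206), Junb (0.163) and Crem (0.121, percentile 53) followed. Between the lowest and highest of all 20 libraries the CPM of Atf3 differed 13.9-fold, that of Fos 7.72-fold, and that of Crem 1.6-fold. These ranges also span the treatments and genotypes. Within single groups the highest CPM was 3.75 to 7.22 times the lowest for Atf3, 1.56 to 7.72 times for Fos and 1.29 to 1.48 times for Crem.

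**Figure D3:**
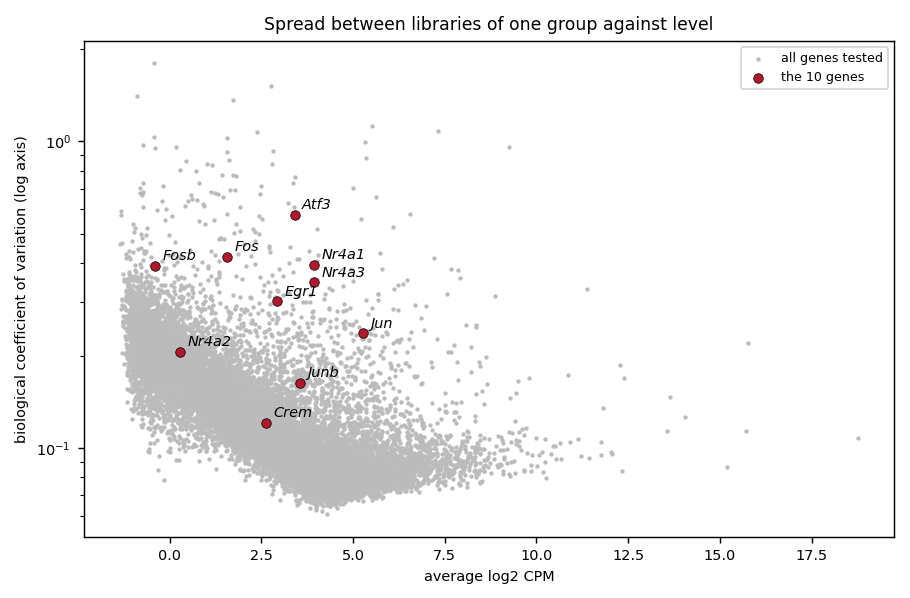
Biological coefficient of variation (log axis) against average log2 CPM for all 14878 genes tested in grey and the 10 genes in red. Atf3 at 0.576 is the highest of the 10 and Crem at 0.121 the lowest, close to the median of 0.116 over all genes.

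The high and low values fell in part on the same libraries. KO isoproterenol replicate 5 was the highest of all 20 libraries for 5 of the 10 genes, namely Fos, Fosb, Nr4a1, Nr4a2 and Crem, and lay above its group mean for 9. For none of the counts in this paragraph was the share over all genes computed. Over genes outside the mitochondrial genome, that library differed from the rest of its group by a chi-square per degree of freedom of 17.79 to 24.67. Among the rest of the group the values were 3.258 to 4.085. KO isoproterenol replicate 1 lay above its group mean for 2 genes and averaged 0.64 below it on the log2 scale over the 10. In WT, vehicle replicate 5 was below its group mean for all 10 genes, by 0.29 on average, and vehicle replicate 3 above it for 8. KO isoproterenol replicate 5 is also the library with the high summed smooth muscle markers, and had the highest summed fibroblast marker level, 913 CPM. Such a sum can be carried by 1 gene of its list. The part of these markers in its high values was not tested.

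**Figure D4:**
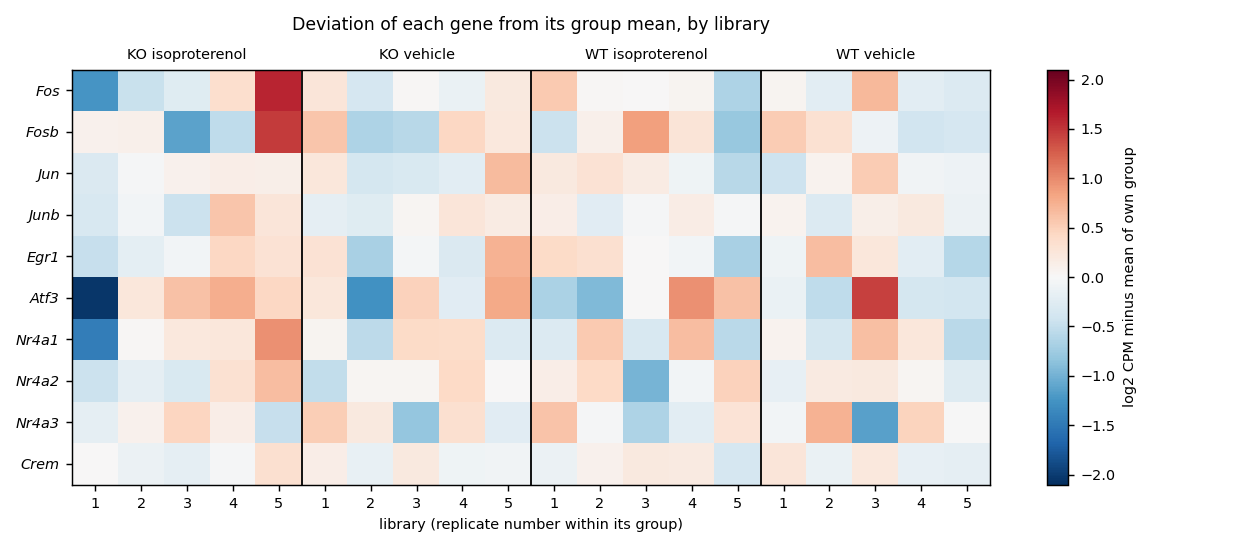
Deviation of each gene (rows) from the mean of its group in each of the 20 libraries (columns), on the log2 CPM scale, red above and blue below. KO isoproterenol replicate 5 is above its group mean for 9 genes, and Atf3 in KO isoproterenol replicate 1 is 2.05 below.

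After removal of group means, 34 of the 45 pairs of genes had a positive Pearson correlation over the 20 libraries and 11 a negative one, with a median r of 0.28. All libraries contribute depth and handling to both genes of a pair. Correlations among pairs of other genes were not computed, so that these counts have no background beside them. In permutations within groups, 5 of the 45 pairs passed by r after Benjamini-Hochberg adjustment, and 6 by rho, the sixth being Fos and Crem. Jun and Egr1 had r = 0.785 and Spearman's rho = 0.797 (permutation p = 0.0006 and 0.00033, adjusted p = 0.0157 and 0.0148), and r = 0.679 without the 2 libraries farthest from the median of Jun. Fos and Egr1 had r = 0.609 and rho = 0.735 (permutation p = 0.00105 and 0.00066, adjusted p = 0.0157 and 0.0148), and r = 0.676 without the 2 farthest. Fos and Jun had r = 0.531 and rho = 0.627 (permutation p = 0.00091 and 0.00189, adjusted p = 0.0157 and 0.0283), and r = 0.661 without the 2 farthest. Fosb and Crem had r = 0.660 and rho = 0.639 (permutation p = 0.00405 and 0.00442, adjusted p = 0.0364 and 0.0391), and r = 0.536 without the 2 farthest. Nr4a3 and Crem ran in opposite directions, with r = −0.682 and rho = −0.695 (permutation p = 0.002 and 0.0026, adjusted p = 0.0225 and 0.0292), and r = −0.625 without the 2 farthest.

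Without KO isoproterenol replicate 5 and WT vehicle replicate 2, the pairs among Fos, Jun and Egr1 passed and no other pair did. Fos and Nr4a1 (r = 0.715, rho = 0.617) did not pass (permutation p = 0.00988 and 0.0092, adjusted p = 0.0741 and 0.0591), and r was 0.410 without the 2 libraries farthest from the median of Fos. Fos had the highest mean correlation with the other 9 genes (0.444), and Nr4a3 the lowest (−0.250). Nr4a3 had negative correlations with Nr4a1 (r = −0.269, rho = −0.328, permutation p = 0.231 and 0.188, adjusted p = 0.385 and 0.424) and with Fos (r = −0.306, rho = −0.251, permutation p = 0.130 and 0.289, adjusted p = 0.316 and 0.491), neither of which passed. The promoter windows of Nr4a1, Nr4a2 and Nr4a3 each hold 4 TGACG matches, and a link between matches and these correlations was not tested.

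**Figure D5:**
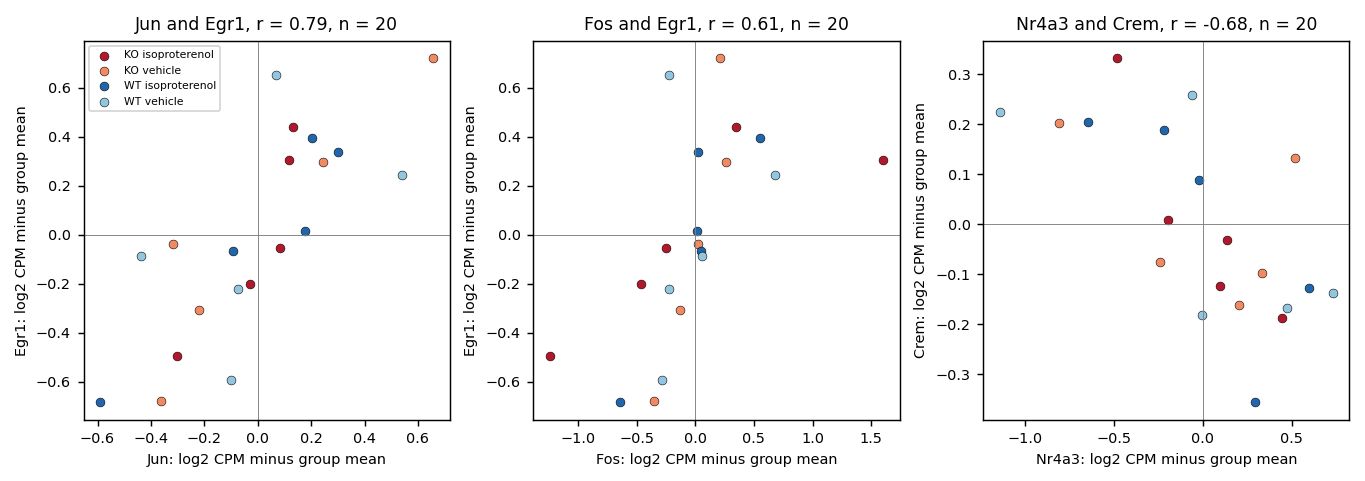
Deviations from group means on the log2 CPM scale for Jun and Egr1, Fos and Egr1, and Nr4a3 and Crem, each point being 1 of the 20 libraries, coloured by group. The first pair rises together (r = 0.785), as does the second (r = 0.609), and the third runs downward (r = −0.682).

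Genes whose levels followed the mean of the 10 across libraries were ranked among 11497 genes by Pearson's r over 20 libraries after removal of group means. The first 10 were Fnip2 (0.876), Colgalt2 (0.831), Abhd2 (0.822), Timeless, Rfx2 and Inhba (0.821 each), Errfi1 (0.819), Aff4 (0.814), Fosl2 (0.809) and Mfsd10 (0.807). The median r over all ranked genes was 0.0157 and the 90th percentile 0.458. Inhba (a subunit of activin), Errfi1 (a feedback inhibitor of EGF receptors) and Fosl2 (a Fos-family subunit) were also in the pathway lists below. Without the 2 libraries that stood apart, Fnip2, Rfx2 and Abhd2 were still among the first 10. For Atf3 alone, looked at after its values were seen, the first 5 were Zfp568 (0.847), the heat shock protein 40 family gene Dnajb4 (0.844), Otud1 (0.816), Frmd5 (0.808) and the calcineurin regulator gene Rcan1 (0.797).

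Other genes of the same pathways were followed in 6 lists of 104 genes, of which 97 were tested. With isoproterenol averaged over genotypes, 8 of 41 other immediate early genes were higher and 3 lower, with a median log2 fold change of 0.12 against 0.01 over all genes (9.76% of all genes were higher and 9.07% lower). The 6 with the smallest p were Socs3 (log2 fold change 0.80), which encodes an inhibitor of cytokine signalling, the C/EBP factor gene Cebpd (0.47), the survival gene Mcl1 (0.19), the NF-kappaB modulator gene Nfkbiz (0.35), Thbs1 (0.49), a matricellular protein gene, and Zfp36 (−0.35), whose product destabilizes short-lived messages. Socs3 averaged 5.85 ± 1.53 CPM in KO isoproterenol and 3.08 ± 0.261 CPM in KO vehicle, and 6.00 ± 1.52 CPM in WT isoproterenol and 3.80 ± 0.937 CPM in WT vehicle (SD, n = 5 each). Zfp36 averaged 26.1 ± 4.02 CPM in KO isoproterenol and 34.2 ± 2.73 CPM in KO vehicle, and 28.1 ± 5.41 CPM in WT isoproterenol and 34.7 ± 4.49 CPM in WT vehicle. Its call was lost with library totals alone (adjusted p = 0.0713), and the other 5 kept theirs in all 31 alternatives.

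Of 16 cyclic AMP and CREB targets outside the 10 genes, 4 were higher in the averaged comparison and 1 lower (median 0.06). In that comparison 9.76% of all genes were higher and 9.07% lower. Pde4b, a cyclic AMP phosphodiesterase gene, had a log2 fold change of 0.42 (SE 0.0863, edgeR adjusted p = 0.00140), with 26.8 ± 4.01 CPM in KO isoproterenol and 21.0 ± 2.54 CPM in KO vehicle, and 29.4 ± 5.89 CPM in WT isoproterenol and 21.1 ± 1.53 CPM in WT vehicle (SD, n = 5 each). Inhba (0.52), Nfil3 (0.49), a bZIP repressor gene, and Cited2 (0.27), a CBP/p300-binding factor gene, were also higher, and Rgs2 (−0.29), a G protein regulator gene, was lower. Cited2 kept its call in 9 of 20 fits that left out a library, and the other 4 in all 20. The Nfil3 call was lost without the pair of libraries that stood apart (0.37, adjusted p = 0.0589), and the Rgs2 call with library totals only (−0.23, adjusted p = 0.0825). A fit that included 2 surrogate variables also lost both (adjusted p = 0.0773 for Nfil3 and 0.0610 for Rgs2). Among other AP-1 and small Maf genes 2 of 9 were higher, Mafk (0.23) and Fosl2 (0.36), and Fosl2 kept its call in 11 of 20 such fits and lost it without that pair (0.26, adjusted p = 0.0842). Nab2 (0.35), a corepressor of EGR factors, was the 1 higher of 4 genes in its list. Of 14 SRF, MRTF and ERK inputs, Mapk3 (0.25), which encodes ERK1, was higher and Myocd (−0.32), an SRF coactivator of muscle, lower. Of 13 CREB/ATF factors and coactivators 0 passed in the averaged comparison. Over the 6 lists, 21 of 97 genes passed in that comparison, against 18.8% of all genes. Of these 21 calls, 15 held in all 20 fits that left out a library and 11 in all 31 alternatives. DESeq2 and limma-voom called 23 and 22 of the 97 genes. Over all genes limma-voom called 2914 in that comparison, against 2801 in edgeR, and the DESeq2 count is not given here.

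Within single genotypes fewer of these genes passed. In KO, 2 of 41 other immediate early genes were higher with isoproterenol (Socs3, 0.93, and Thbs1, 0.59) and 0 lower, against 4.75% and 4.29% of all genes. Nfil3 (0.71) and Cited2 (0.45) of 16 CREB targets, Mafk (0.33) of 9 AP-1 and Maf genes, and Mapk3 (0.37) and the RSK gene Rps6ka1 (0.52) of 14 SRF and ERK inputs were also higher in KO, and Myocd (−0.27) lower. In WT, 4 of 41 were higher (Cebpd, 0.58, Mcl1, 0.25, Socs3, 0.68, and Nfkbiz, 0.38) and 1 lower (Phlda1, −0.82), against 4.64% and 4.12% of all genes. Pde4b (0.48) and Inhba (0.66) of 16 CREB targets were also higher in WT, and Myocd (−0.37) lower. Of these 8 calls in each genotype, 1 in KO (Socs3) and 4 in WT (Cebpd, Mcl1, Myocd and Pde4b) held in all 20 fits that left out a library. Over all 32 alternatives 1 and 3 held, since Pde4b lost its WT call with 2 surrogate variables (0.34, adjusted p = 0.153). Socs3 lost its WT call without WT isoproterenol replicate 4 or WT vehicle replicate 3 or 4, and Mapk3 its KO call without KO vehicle replicate 3. The calls of Mafk, Myocd, Rps6ka1, Thbs1, Nfil3 and Cited2 in KO, and of Nfkbiz, Phlda1 and Inhba in WT, were lost without any 1 of 5 to 8 libraries, all of them in the groups compared (highest adjusted p = 0.130 over these fits). Without the pair of libraries that stood apart, Nfil3 (0.51, adjusted p = 0.0917), Thbs1 (0.51, adjusted p = 0.0815) and Rps6ka1 (0.47, adjusted p = 0.0929) did not pass in KO, nor Phlda1 (−0.76, adjusted p = 0.0913) in WT. In the main fit 8 of the 97 genes passed in each genotype, against 9.03% of all genes in KO and 8.76% in WT. With no filter on low counts 14 and 16 of the 97 passed, in KO and WT. The share over all genes in those fits is not given here.

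Between genotypes, Creb5 alone of the 97 genes passed, under isoproterenol, where 0.181% of all genes did. It encodes a CREB-family factor and measured 22.6 ± 3.25 CPM in KO isoproterenol and 17.3 ± 1.23 CPM in WT isoproterenol (SD, n = 5 each), a log2 fold change of 0.39 (SE 0.0844, edgeR adjusted p = 0.0471). The call held in 5 of 20 fits that left out a library and in 11 of 32 alternatives in all, with 0.32 to 0.45 on the log2 scale. Without any 1 of the other 15 libraries the highest adjusted p was 0.131, and without the pair that stood apart it was 0.0866. Under vehicle 0 of the 97 passed the edgeR test and 9 had an unadjusted p under 0.05, against 0.128% and 8.31% of all genes. For the difference of the responses the counts were 0 and 10, against 0% and 7.68%. DESeq2 and limma-voom also called 0 of them in both comparisons. With no filter on low counts edgeR called 5 of the 97 between genotypes under isoproterenol, 2 under vehicle and 1 for the difference of the responses. The share over all genes in those fits is not given here. With 2 surrogate variables 1 of the 97 was called under vehicle, and 48 of all genes were.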

How the data were processed

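Heart RNA was measured in 20 stranded total RNA libraries, 5 in each of 4 groups taken from the labels. The deposited table holds raw counts per gene, made by the authors with HISAT2 2.1.0 and featureCounts 1.6.3 on GRCm38, per the submitters' processing notes. Those notes list limma 3.40.6 and R 3.6.0 as well. Strand use, annotation version and the handling of multi-mapping reads are not given in the sources used here, so that counts of overlapping, antisense or near-identical genes may have been shared or dropped. The 10 genes and all lists were chosen with earlier results of these data known.

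Symbols came from GENCODE vM21, in which 55154 of 55335 IDs were found. Libraries of the same group all differed by more than sampling noise (lowest chi-square per degree of freedom 3.03 over 40 pairs). Counts were fitted in R 4.3.3 with edgeR 4.0.16 (filterByExpr with a minimum count of 10, TMM scaling, robust quasi-likelihood, 1 fit over 4 groups, 16 residual degrees of freedom), with a Benjamini-Hochberg threshold of 0.05 over 14878 genes. CPM values use TMM-scaled totals. The averaged comparison is the mean of the responses in both genotypes. Correlations used log2 CPM (prior count 2) less group means, with 100000 permutations within groups. All 10 genes were named whatever their p. List genes were named if they passed, at most 6 per list and comparison by smallest p, and 10 genes by likeness to the mean of the 10. Of the marker lists, fibroblast, macrophage, endothelial, cardiomyocyte, atrial and smooth muscle values stand in the text. The script was tested on simulated counts with 200 changed genes. Alternatives were other scalings and filters, no mitochondrial genes, DESeq2 1.42.0, limma-voom (3.58.1), 2 surrogate variables (sva 3.50.0), only the groups compared, without the pair of libraries that stood apart, and each library left out. The alternatives for list genes were added after their calls had been seen. Figures used Python 3.11.15 and matplotlib 3.10.9.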

Additional observations from a re-analysis of the deposited data

Results flagged for a closer look

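Of 40 groups of 5 libraries (10 genes in 4 groups), 3 held a library far from the others, by a gap of more than 0.71 of the range of the group. Chance flags about 1 in 20 groups. Fosb in KO isoproterenol replicate 5 measured 2.11 CPM, against 0.273 to 0.762 CPM in the other libraries of the group. Atf3 in WT vehicle replicate 3 measured 10.7 CPM, against 2.66 to 3.52 CPM in the others, and without that library the log2 fold change of Atf3 with isoproterenol in WT was 2.39 in place of 1.75. Fos was also high in WT vehicle replicate 3, at 4.14 CPM against 2.07 to 2.65 CPM in the others.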

How the results depend on the processing

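The averaged rise of Atf3 with isoproterenol passed in all 31 alternatives (log2 fold change 1.43 to 1.99, adjusted p 0.00013 to 0.0253). The count of the 10 genes that passed was 0 with isoproterenol in WT, with 0 to 1 on leaving out 1 library. It was 1 with DESeq2, limma-voom and limma-voom quality weights, which called 1539, 1359 and 1838 of all genes, against 1304 in the main fit. In KO the count was 0, with 0 to 1 on leaving out 1 library. It was 1 with DESeq2, which called 1549 of all genes, against 1344 in the main fit. In the averaged comparison the count was 1, with 1 to 2 on leaving out 1 library. It was 2 (Atf3 and Jun) with limma-voom without and with quality weights. Those fits called 2914 and 3180 of all genes, against 2801 in the main fit. For the other 3 comparisons the count of the 10 stayed at 0 in the alternatives run. The number of correlated pairs was 5, but 3 without KO isoproterenol replicate 5 and WT vehicle replicate 2. The log2 fold change of a gene turned its sign in 124 of 1894 values from alternatives, over 30 of 60 results, none of which passed in either setting (smallest adjusted p = 0.468). With library totals only, the turned values were Egr1 0.00076 for isoproterenol against vehicle in WT, Jun 0.0048 for KO against WT under isoproterenol, Egr1 0.035 for the averaged isoproterenol comparison. With limma-voom quality weights, the turned values were Egr1 0.042 for isoproterenol against vehicle in WT, Fos −0.013 for isoproterenol against vehicle in KO, Nr4a3 0.12 for KO against WT under vehicle. In the same fit they were Atf3 −0.27 and Nr4a1 −0.23 for KO against WT under isoproterenol, Fos −0.36 for the difference of the responses, Fosb −0.15, Egr1 0.054 and Nr4a2 −0.054 for the averaged isoproterenol comparison. With 2 surrogate variables, the turned values were Egr1 0.21 and Crem −0.054 for isoproterenol against vehicle in WT, Fos −0.028 and Egr1 −0.15 for isoproterenol against vehicle in KO, Atf3 −0.10 and Nr4a3 0.28 for KO against WT under vehicle. In the same fit they were Egr1 −0.066 and Nr4a1 −0.062 for KO against WT under isoproterenol, Fos −0.16, Egr1 −0.36, Atf3 0.36 and Nr4a3 −0.25 for the difference of the responses, Fosb −0.26, Egr1 0.031, Nr4a1 −0.032, Nr4a2 −0.016 and Crem −0.0025 for the averaged isoproterenol comparison. Without both libraries that stood apart, the turned values were Egr1 0.13 for isoproterenol against vehicle in WT, Fos −0.13, Fosb −0.043 and Egr1 −0.076 for isoproterenol against vehicle in KO, Nr4a3 0.091 for KO against WT under vehicle. In the same fit they were Atf3 −0.013 and Nr4a1 −0.20 for KO against WT under isoproterenol, Fos −0.44 and Egr1 −0.21 for the difference of the responses, Fosb −0.26 and Egr1 0.028 for the averaged isoproterenol comparison. With upper quartile scaling, the turned values were Egr1 −0.013 for isoproterenol against vehicle in KO. With no filter on low counts, the turned values were Egr1 −0.0072 for isoproterenol against vehicle in KO. With limma-voom, the turned values were Nr4a3 0.015 for KO against WT under vehicle, Jun 0.0054, Atf3 −0.10 and Nr4a1 −0.030 for KO against WT under isoproterenol. In the same fit they were Fos −0.11 for the difference of the responses, Fosb −0.075 and Egr1 0.012 for the averaged isoproterenol comparison. Leaving out 1 library at a time also turned signs. For isoproterenol against vehicle in WT the log2 fold change ranges were −0.17 to 0.13 (Egr1), −0.30 to 0.087 (Nr4a1), −0.11 to 0.29 (Nr4a3) and −0.013 to 0.11 (Crem). For isoproterenol against vehicle in KO the log2 fold change ranges were −0.13 to 0.80 (Fos), −0.042 to 0.87 (Fosb), −0.035 to 0.23 (Junb) and −0.14 to 0.25 (Egr1). For KO against WT under vehicle the log2 fold change ranges were −0.094 to 0.28 (Jun), −0.12 to 0.30 (Egr1), −0.080 to 0.84 (Atf3) and −0.31 to 0.091 (Nr4a3). For KO against WT under isoproterenol the log2 fold change ranges were −0.79 to 0.14 (Fos), −0.13 to 0.060 (Jun), −0.15 to 0.37 (Atf3), −0.19 to 0.35 (Nr4a1), −0.052 to 0.25 (Nr4a3) and −0.14 to 0.017 (Crem). For the difference of the responses the log2 fold change ranges were −0.49 to 0.43 (Fos), −0.29 to 0.081 (Jun), −0.13 to 0.29 (Egr1), −0.79 to 0.18 (Atf3), −0.012 to 0.39 (Nr4a3) and −0.0080 to 0.14 (Crem). For the averaged isoproterenol comparison the log2 fold change ranges were −0.30 to 0.16 (Fosb), −0.091 to 0.10 (Egr1) and −0.0054 to 0.20 (Nr4a2). The causes were not tested. A fit of only the groups compared does not exist for the difference of the responses and the averaged comparison, and the planned test for genes under the filter was not needed because all 10 passed it. No paired analysis was possible because the labels number no replicates, and the numbers used here only name libraries. Low counts limit Fosb (3 to 50 per library) and Nr4a2 (8 to 53) most.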

Other observations

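Nr4a3 had its lowest level of all 20 libraries, 6.23 CPM, in WT vehicle replicate 3, the library in which Atf3 and Fos were far above the rest of their group. Looked at after these values were seen, the genes most like Nr4a3 across the 20 libraries after removal of group means were Greb1 (r = 0.845), Bmp6 (0.823), Rubcnl (0.820), Baz2a (0.801) and Sufu (0.769). Bmp6 encodes a bone morphogenetic protein and Sufu an inhibitor of Hedgehog signalling. All 5 had r of at least 0.735 without the pair of libraries that stood apart.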
